A study of Mus musculus with 18 samples.

Results

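The 38 genes described here encode proteins that carry a cell through mitosis: the mitotic cyclins and their kinase, the other mitotic kinases, the spindle checkpoint, the anaphase machinery, kinetochore and spindle proteins, and the proteins of cytokinesis. They were picked by gene name for their role in mitosis, in a list drawn up with earlier results of these data known, and all 38 are among the 15194 genes that the 7 deposited comparison tables list between them. The cells were 3T3-L1, mouse preadipocytes of fibroblast origin that become adipocytes in culture, and their RNA was sequenced. Control cells (CTL) were compared with cells labelled MLKL-/- or RIPK3-/-, knockouts of the membrane-permeabilising pseudokinase of necroptosis and of the kinase that activates it. Each was taken undifferentiated (J0) or differentiated (J7), which gives 6 groups of 3 libraries: J0_CTL, J0_MLKL, J0_RIPK3, J7_CTL, J7_MLKL and J7_RIPK3. As treatment the labels give only untreated or differentiated cells and name no agent. They are silent on how the knockouts were made, on whether each is 1 clone and on whether libraries of a group come from separate cultures, so each p-value reflects the spread among these libraries, which may be technical.

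Mitotic genes are switched on late in the cell cycle. In resting cells the DREAM complex, which holds MuvB proteins together with E2F4 and a pocket protein, keeps them silent, and in dividing cells MuvB recruits B-MYB and FOXM1 to the same promoters and activates them. Preadipocytes stop dividing when they reach confluence, re-enter the cycle for a limited clonal expansion when the differentiation mix is added, and then leave the cycle as they become fat cells. Bulk RNA cannot tell fewer dividing cells from less mitotic RNA per dividing cell, and this holds for every level below.

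Library totals were 20.2 to 36.9 M reads. The deposited tables hold only genes with an authors' adjusted p below 0.05, which took up 89.96 to 98.4% of all reads in CTL and RIPK3 libraries, 29.3 to 30.4% in J0_MLKL and 53.5 to 54.5% in J7_MLKL. A gene has counts in a group only through such a listing. Numbers and shares of called or non-overlapping genes below therefore depend in part on the authors' own calls. Group names follow the sample titles, and in the 6 J7 knockout samples the genotype label names the other knockout, so every J7_RIPK3 and J7_MLKL value below is that of libraries so titled. Below, RIPK3-titled and MLKL-titled cells means cells with that name in the title. If the genotype label were the right one, J7_RIPK3 against J0_RIPK3, J7_MLKL against J0_MLKL and both differences of changes would each set 1 knockout line against the other, and the change with differentiation of a knockout line could not be read from them. Mlkl stood at 18.9 ± 0.792 CPM (counts per M reads of the library total; mean ± SD, n = 3, as everywhere below) in J0_CTL, 8.05 ± 1.45 in J0_MLKL and 15.95 ± 1.62 in J0_RIPK3, and at 26.3 ± 1.10, 15.1 ± 1.24 and 29.1 ± 2.94 in J7_CTL, J7_MLKL and J7_RIPK3. Ripk3 stood at 18.2 ± 1.40, 7.45 ± 1.87 and 15.9 ± 1.31 CPM in J0_CTL, J0_MLKL and J0_RIPK3 and at 18.3 ± 0.842, 9.23 ± 2.40 and 10.9 ± 0.750 in the same order at J7. An edited gene can still be transcribed, so these levels do not settle the labels. The cells match the names J0 and J7: 6 adipocyte markers (Adipoq, Plin1, Fabp4, Cidec, Lep and Retn) summed to 6.24 CPM in J0_CTL and 13710 CPM in J7_CTL, to 9.02 and 14350 CPM in J0_RIPK3 and J7_RIPK3, and to 1.31 and 2071 CPM in J0_MLKL and J7_MLKL. Of lists for other cell types, the macrophage genes Cd68 and Csf1r each stood at 0.278 to 5.91 CPM where listed and Cd14 at 10.4 to 13.7 CPM, except in J7_MLKL, where Cd14 was at 41.8 ± 13.3 CPM (it is not listed for J7_RIPK3). The listed endothelial and skeletal muscle genes summed to at most 4.36 CPM and the epithelial genes to 33.7 CPM in J7_CTL, 18.5 in J7_RIPK3 and at most 1.04 elsewhere. The libraries J0_MLKL 2 and J7_MLKL 3 stood apart from the others of their groups.

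The promoters of the mitotic genes are shown first, because the shared letters in them are what the DREAM and MuvB proteins and the factor NF-Y are known to bind. MuvB binds the cell cycle genes homology region (CHR), here searched as TTTGAA and in its rarer form as TTCGAA. NF-Y binds CCAAT boxes, here searched by those 5 letters. Both strands were searched, so that a CHR on the other strand reads TTCAAA and a box there reads ATTGG. The rarer CHR form is the same on both strands and was counted once, and no motif searched is contained in another. RefSeq's table for GRCm38.p6, the build of the deposited coordinates (mm10), holds a window for 32 of the 38 members, of 300 bases from 250 before to 50 after the start of transcription. It holds none for Kif20a, Aurkb, Incenp, Tpx2, Ccna2 and Dlgap5. The 6 promoters below show the range from many matches to none and were chosen after the matches were seen. Each runs 5′ to 3′ on the gene's strand from 200 bases before to 30 after the start. Capitals mark CHR and CCAAT matches on either strand. The regions are chr9:70421525-70421754 for Ccnb2, chr10:69352883-69353112 for Cdk1, chr4:118437314-118437543 for Cdc20, chr11:99024160-99024389 for Top2a and chr7:135716350-135716579 for Mki67, all on the minus strand, and chr11:117849037-117849266 for Birc5, on the plus strand.
Ccnb2: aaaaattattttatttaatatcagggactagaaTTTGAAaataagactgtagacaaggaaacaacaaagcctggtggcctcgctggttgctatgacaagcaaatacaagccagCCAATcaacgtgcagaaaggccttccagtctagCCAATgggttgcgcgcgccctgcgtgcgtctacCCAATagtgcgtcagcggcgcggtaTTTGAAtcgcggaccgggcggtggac
Cdk1: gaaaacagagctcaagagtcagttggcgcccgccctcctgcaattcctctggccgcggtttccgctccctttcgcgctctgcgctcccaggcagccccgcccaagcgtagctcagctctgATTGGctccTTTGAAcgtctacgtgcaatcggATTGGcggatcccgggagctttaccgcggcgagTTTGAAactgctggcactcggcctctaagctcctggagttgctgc
Cdc20: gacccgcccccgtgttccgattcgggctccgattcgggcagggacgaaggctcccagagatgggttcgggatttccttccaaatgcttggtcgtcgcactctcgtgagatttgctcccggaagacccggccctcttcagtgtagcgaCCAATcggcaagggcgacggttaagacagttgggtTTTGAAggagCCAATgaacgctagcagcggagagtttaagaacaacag
Top2a: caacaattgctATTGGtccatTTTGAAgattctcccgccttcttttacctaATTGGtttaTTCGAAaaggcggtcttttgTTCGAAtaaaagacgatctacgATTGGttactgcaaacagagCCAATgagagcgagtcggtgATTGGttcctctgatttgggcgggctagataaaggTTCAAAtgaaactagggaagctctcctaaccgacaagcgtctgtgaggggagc
Mki67: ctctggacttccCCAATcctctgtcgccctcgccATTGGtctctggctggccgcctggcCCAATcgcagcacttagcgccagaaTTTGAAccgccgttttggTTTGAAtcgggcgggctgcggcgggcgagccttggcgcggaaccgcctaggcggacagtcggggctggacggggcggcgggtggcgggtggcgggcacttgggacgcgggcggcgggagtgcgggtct
Birc5: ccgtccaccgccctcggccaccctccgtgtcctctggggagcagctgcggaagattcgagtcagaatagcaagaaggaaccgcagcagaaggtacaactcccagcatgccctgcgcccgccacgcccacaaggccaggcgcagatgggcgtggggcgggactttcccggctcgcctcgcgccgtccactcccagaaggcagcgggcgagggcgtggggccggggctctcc

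Ccnb2, for the second B-type cyclin, holds 2 CHR and 3 CCAAT matches in the stretch shown, and the CHR at position 5 lies just past its start. Cdk1 holds 2 and 2, and its CHR matches at -71 and -15 each follow a CCAAT box. Cdc20 holds 1 CHR between 2 CCAAT boxes, Top2a holds 4 CHR and 5 CCAAT matches, and Mki67 holds 2 and 3. Birc5, for survivin, holds neither in the stretch shown or in its whole window. Over the 32 members, 25 windows (78.1%) hold a CHR match, against 19.4% of the 27025 windows of the table, 1 window per gene. A CCAAT match stands in 24 member windows (75.0%) against 37.9% of all windows, and both stand in 22 (68.8%) against 7.70%. The E2F core was searched on both strands in 4 spellings: TTTGGCG as the first, TTTCGCG (the spelling found in Cdk1), TTTCCCG (the spelling found in Birc5) and TTTGCCG as the last. At least 1 of them stands in 5 member windows (15.6%) against 6.85% of all. Members without a CHR match are Birc5, Ccnb1, Cenpe, Mad2l1, Melk, Nuf2 and Nusap1, which says only that these letters are not in these windows. The RefSeq start lies within 328 bases of the deposited gene start for 30 of the 32 and farther off for Cdca8 (2394 bases) and Kif2c (3867 bases).

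**Figure D1:**
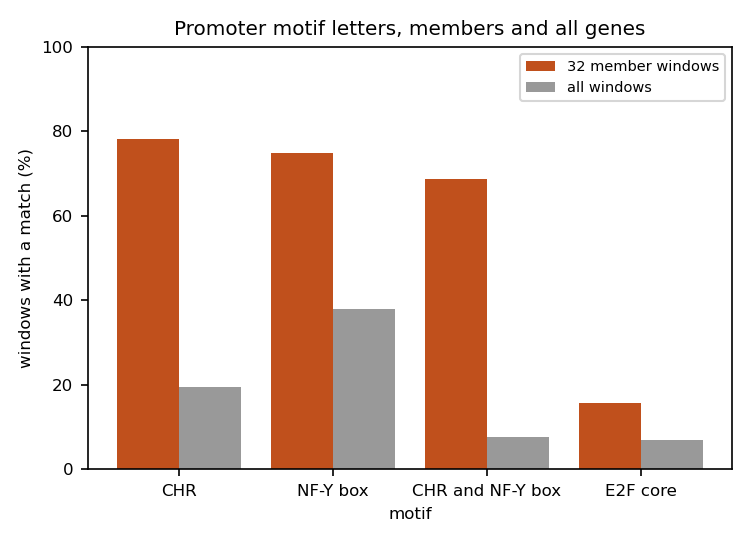
Share of promoter windows with at least 1 match (y axis, %) for each motif (x axis), in the 32 member windows (orange) and in the 27025 windows of all genes (grey). CHR and CCAAT letters (the NF-Y box) stand together in 68.8% of member windows and 7.70% of all windows.

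Before differentiation, mitotic genes stood higher in RIPK3-/- cells than in control cells. All 37 members with counts in J0_RIPK3 and J0_CTL rose, from 1.68-fold for Racgap1 to 2.89-fold for Kif20a, with a median of 2.43-fold. Of all 11044 genes tested, 55.8% were called either way and 28.3% were called higher, and the median log2 fold change was 1.26 over the members and -0.01 over all genes tested. Kif11 has no counts in J0_CTL, because no table that covers this group lists it, and it was not tested here. The authors called all 37 higher in this same comparison. Aurka, Birc5, Bub1b, Ccnb1, Cdc20, Espl1, Nusap1, Prc1, Ttk and Ube2c have J0_CTL counts only through that call. That all 37 rose without overlap therefore follows in part from the listing, and the sizes of the changes are the result. No library of J0_RIPK3 overlapped J0_CTL for any of the 37, and over all genes tested the libraries did not overlap for 60.9%. Summed over the 37 members that have counts in all 4 groups of CTL and RIPK3, the level was 560.0, 565.0 and 564.1 CPM in J0_CTL and 1322, 1349 and 1249 CPM in J0_RIPK3, which is 2.32-fold higher. Folds here are ratios of reads over library totals, and log2 fold changes (± SE) come from edgeR's quasi-likelihood test with Benjamini-Hochberg adjustment over all genes tested, where a gene with adjusted p under 0.05 is called.

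With differentiation, mitotic genes fell throughout the set in RIPK3-titled cells and in part of the set in control cells. In J7_RIPK3 against J0_RIPK3 all 38 members fell, by a median of 4.85-fold, from 1.40-fold for Incenp to 18.2-fold for Kif23. Of all 11798 genes tested, 97.8% were called, 49.3% higher and 48.5% lower, and the median log2 fold change was -2.31 over the members and 0.04 over all genes. In J7_CTL against J0_CTL, 23 of 37 members fell, 7 rose (Incenp, Aurkb, Cdk1, Cdca8, Mad2l1, Top2a and Anln) and 7 were not called (Aurka, Birc5, Cdc20, Espl1, Nusap1, Ttk and Ube2c). Of all 12055 genes tested there, 95.9% were called, 48.2% higher and 47.6% lower, and the median log2 fold change was -0.44 over the members and 0.03 over all genes. With library totals alone as the scaling the members' split was 8 higher and 21 lower, and with the authors' size factors it was 9 and 21. The summed level was 522.9, 512.0 and 535.0 CPM in J7_CTL and 351.4, 363.9 and 342.4 CPM in J7_RIPK3, so it was 3.71-fold lower than at J0 in RIPK3-titled cells and 0.929 times the J0 level in control cells. The libraries of J7 and J0 did not overlap for any of the 38 members in RIPK3-titled cells and for 29 of 37 in control cells. Over all genes tested these shares were 97.2% and 95.7%. Most genes tested have counts because the authors called them between the same 2 stages, so shares this high follow from the listing. Of the members, the authors listed all 38 as lower between J0_RIPK3 and J7_RIPK3. Anln, Ccnb2, Cenpa, Hmmr, Kif20a and Kif2c have J7_RIPK3 counts, and Kif11 has J0_RIPK3 counts, only through that call. That all 38 fell therefore follows in part from the listing. Between J0_CTL and J7_CTL the authors listed 26 members, and the others have counts through other comparisons. The 29 of 37 can therefore not be ranked against the share of all genes. The fibroblast marker list (Pdgfra, Pdgfrb, Thy1, Dlk1, Col1a1 and Col3a1) summed to 9032 and 11200 CPM in J0_CTL and J0_RIPK3 and to 2859 and 1949 CPM in J7_CTL and J7_RIPK3, and the part of this change in cell state in the mitotic levels was not tested.

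By the titles, the order of RIPK3 and control cells at J7 was the reverse of that at J0. If the genotype label were the right one, the 2 stages would set different knockouts against control. In J7_RIPK3 against J7_CTL, 33 of 38 members fell, by up to 3.33-fold for Kif11, and 5 were not called (Anln, Ccnb2, Cenpa, Kif20a and Kif2c). The authors called 32 members lower in this same comparison. Aurka, Birc5, Bub1b, Ccnb1, Cdc20, Espl1, Kif11, Nusap1, Prc1, Tpx2, Ttk and Ube2c have J7_CTL counts only through that call. The numbers of members that fell or did not overlap here therefore follow in part from the listing. Of all 11170 genes tested, 59.1% were called, 29.6% higher and 29.5% lower, and the median log2 fold change was -0.65 over the members and 0.00 over all genes. The libraries did not overlap for 32 of 38 members, against 62.5% of all genes tested. The summed level in J7_RIPK3 was 0.674 times that in J7_CTL. The difference between the 2 differentiation changes was tested directly, as the J7 minus J0 change in RIPK3-titled cells less that in control cells. All 37 members tested were called lower, from -1.14 for Cdk1 to -2.50 for Cenpf, against 39.0% called and 20.6% called lower of 11027 genes (median -1.89 over the members and 0.01 over all genes). This contrast uses the same 12 libraries as the other comparisons and takes in both the higher J0 level and the lower J7 level, so it is not a further, independent result. Of the members with J7_CTL counts only through the authors' lower call, all but Kif11 and Tpx2 also have J0_CTL counts only through their higher call at J0. For those members the direction of the difference follows from both calls, so that all 37 were lower follows in part from the listing.

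**Figure D2:**
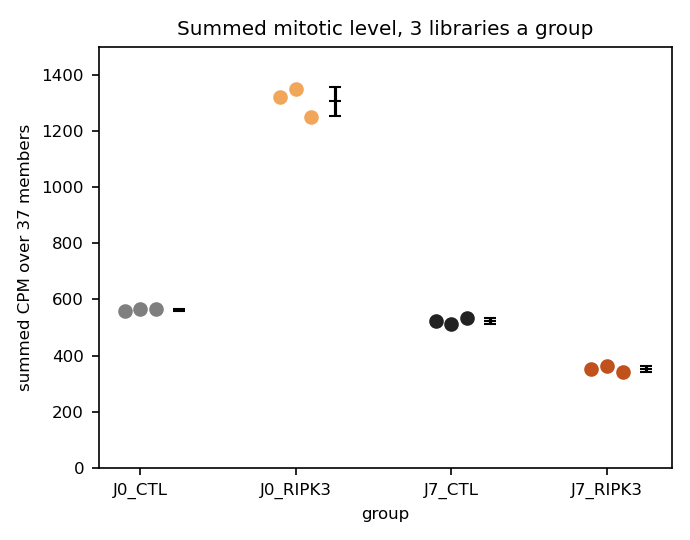
Summed CPM (y axis, from 0) over the 37 members with counts in all 4 groups (x axis), 1 point per library, with the mean and SD over 3 libraries beside the points. J0_RIPK3 lies between 1249 and 1349 CPM, above every other library, and J7_RIPK3 between 342.4 and 363.9 CPM, below every other library.

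**Figure D3:**
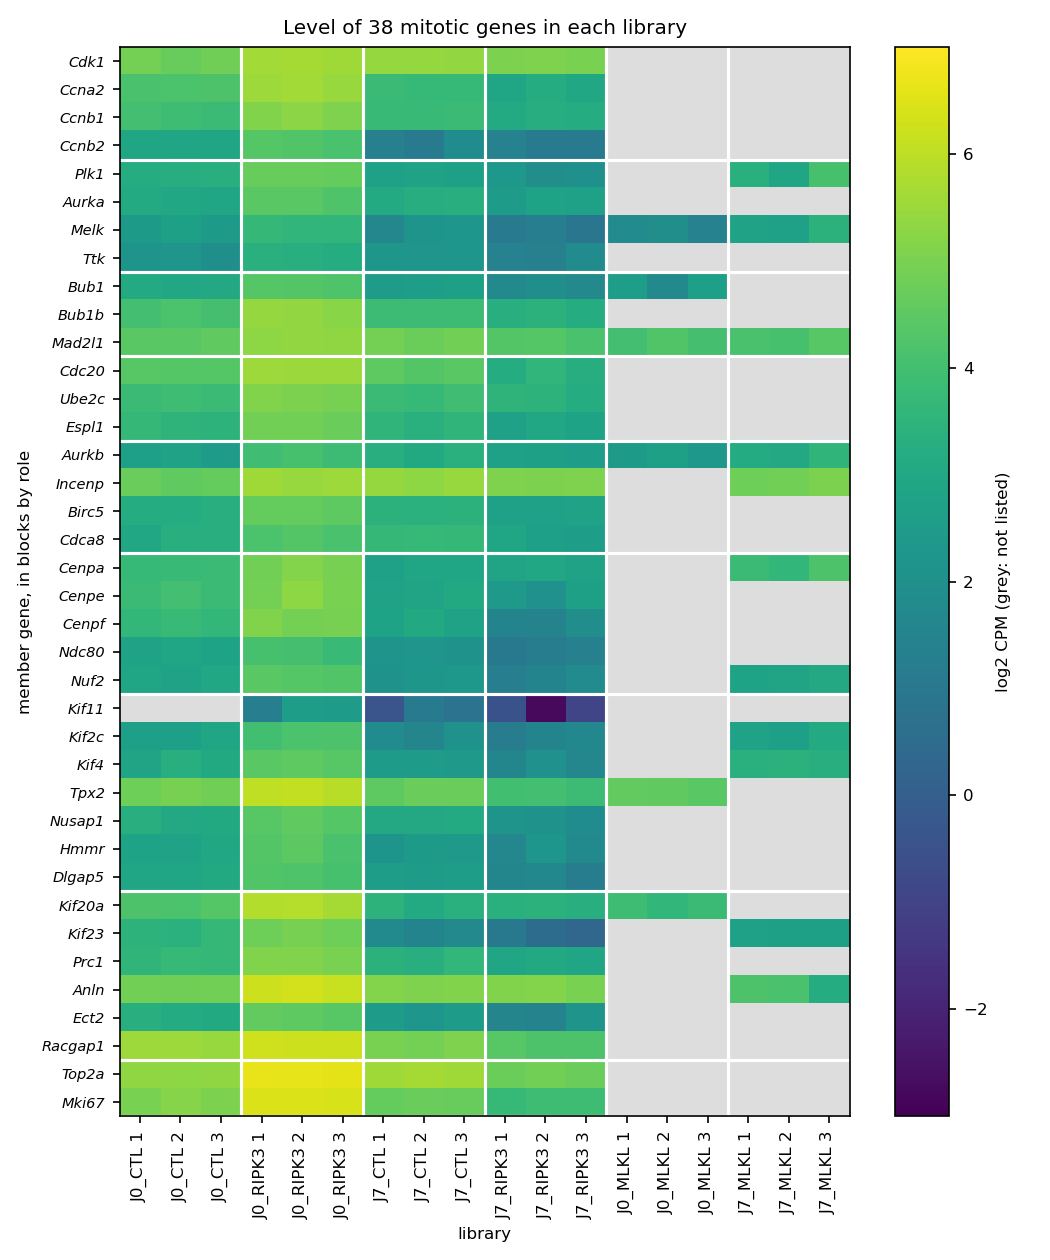
Level of each of the 38 members (y axis, in blocks by role) in each of the 18 libraries (x axis), as log2 CPM in colour. Grey marks groups for which no deposited table lists the gene, which leaves 6 members in J0_MLKL and 11 in J7_MLKL, and the 3 J0_RIPK3 columns are the brightest of the 4 CTL and RIPK3 groups.

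Cdk1 is the kinase that drives entry into mitosis, Ccna2 encodes the cyclin that activates it in late S and G2, and Ccnb1 and Ccnb2 encode the B-type cyclins of mitosis itself. All 4 rose in J0_RIPK3 against J0_CTL and fell from J0_RIPK3 to J7_RIPK3, while with differentiation of control cells the kinase rose and the 3 cyclins fell. Cdk1 stood at 30.04, 25.9 and 28.3 CPM in J0_CTL, 48.9, 50.6 and 47.8 in J0_RIPK3, 43.1, 42.3 and 41.7 in J7_CTL and 32.4, 33.2 and 32.1 in J7_RIPK3. No library overlapped between any of these groups, and control cells had more Cdk1 after differentiation (1.502-fold, log2 0.55 ± 0.06, adjusted p 2.26e-09), whereas RIPK3-titled cells had less (1.502-fold lower, -0.62 ± 0.05, adjusted p 2.15e-10). Ccnb2 stood at 7.39, 7.58 and 7.43 CPM in J0_CTL and 20.4, 19.6 and 17.6 in J0_RIPK3, and at 2.53, 2.23 and 3.62 in J7_CTL and 2.71, 2.13 and 2.19 in J7_RIPK3. It fell 2.65-fold in control cells (-1.45 ± 0.15, adjusted p 2.23e-09) and 8.09-fold in RIPK3-titled cells (-3.05 ± 0.12, adjusted p 3.22e-16), to J7 levels that overlapped between the lines (-0.24 ± 0.21, adjusted p 0.327). Within a library, which needs no scaling, there were 0.246 to 0.293 Ccnb2 reads per Cdk1 read in J0_CTL, 0.369 to 0.418 in J0_RIPK3, 0.0528 to 0.0868 in J7_CTL and 0.0641 to 0.0836 in J7_RIPK3 (a pair chosen after the values were seen). Both lines had fewer Ccnb2 reads per Cdk1 read at J7 than at J0, with no overlap between stages, although Cdk1 itself fell in RIPK3-titled cells and rose in control cells.

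Ccna2 stood at 17.5, 17.97 and 18.2 CPM in J0_CTL, 46.6, 49.4 and 44.3 in J0_RIPK3, 13.9, 12.9 and 12.9 in J7_CTL and 7.58, 9.21 and 7.74 in J7_RIPK3. Its 4 groups did not overlap: it was 2.59-fold higher in J0_RIPK3 than in J0_CTL (1.36 ± 0.06, adjusted p 3.98e-15) and 1.63-fold lower in J7_RIPK3 than in J7_CTL (-0.69 ± 0.10, adjusted p 3.53e-06). Ccnb1 stood at 16.3, 14.9 and 13.97 CPM in J0_CTL, 34.1, 37.9 and 33.1 in J0_RIPK3, 13.8, 13.8 and 13.98 in J7_CTL and 8.63, 9.46 and 9.14 in J7_RIPK3. The J0_RIPK3 libraries were the highest and the J7_RIPK3 libraries the lowest, and the step from J0_CTL to J7_CTL was small (-0.17 ± 0.08, adjusted p 0.0457). That control call was lost with every other scaling, with DESeq2, with the replicate block and without any 1 of 5 of the 6 libraries (adjusted p 0.0530 to 0.288), and the exception was J0_CTL 3.

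The mitotic kinases of the set are Plk1 and Aurka, which build the spindle poles and promote entry into mitosis, Ttk, which starts the checkpoint signal at kinetochores, and Melk. All 4 rose in J0_RIPK3, fell from J0_RIPK3 to J7_RIPK3 and were lower in J7_RIPK3 than in J7_CTL, and 2 of 4 (Plk1 and Melk) fell with differentiation of control cells. Plk1 stood at 9.198, 9.36 and 9.65 CPM in J0_CTL, 25.4, 25.9 and 24.9 in J0_RIPK3, 6.67, 6.86 and 6.34 in J7_CTL and 5.04, 3.86 and 4.002 in J7_RIPK3. The 4 groups did not overlap, with a 2.701-fold difference at J0 (1.41 ± 0.07, adjusted p 1.2e-13) and a 5.87-fold fall in RIPK3-titled cells (-2.58 ± 0.10, adjusted p 1.89e-16). Aurka stood at 8.62, 7.82 and 7.47 CPM in J0_CTL, 21.9, 21.8 and 19.01 in J0_RIPK3, 8.58, 9.34 and 9.81 in J7_CTL and 5.54, 6.88 and 6.57 in J7_RIPK3. Its control groups overlapped (0.16 ± 0.10, adjusted p 0.124, called with the authors' size factors at adjusted p 0.0387), and in RIPK3-titled cells it fell 3.27-fold (-1.75 ± 0.10, adjusted p 3.8e-13). Ttk did not pass in control cells either (0.05 ± 0.13, adjusted p 0.736) and fell 3.26-fold in RIPK3-titled cells.

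The spindle checkpoint holds back anaphase until every kinetochore is attached. Its members here are the kinase Bub1, the related Bub1b (BUBR1) and Mad2l1, which encodes the protein that binds and inhibits CDC20. All 3 rose in J0_RIPK3, fell with differentiation of RIPK3-titled cells and were lower in J7_RIPK3 than in J7_CTL. Bub1 stood at 8.62, 7.96 and 8.23 CPM in J0_CTL, 20.7, 20.05 and 18.8 in J0_RIPK3, 5.68, 6.13 and 6.49 in J7_CTL and 3.33, 3.96 and 3.25 in J7_RIPK3, with no overlap between the 4 groups. It fell 1.36-fold in control cells (-0.48 ± 0.11, adjusted p 0.000214) and 5.66-fold in RIPK3-titled cells (-2.53 ± 0.11, adjusted p 1.08e-15). Mad2l1 went the other way in control cells, from 22.2 ± 0.932 to 28.9 ± 1.57 CPM (0.34 ± 0.06, adjusted p 2.15e-05), and fell in RIPK3-titled cells from 40.9 ± 1.11 to 19.3 ± 1.43 CPM (-1.12 ± 0.06, adjusted p 2.17e-13). Bub1b had log2 values of -0.25 in control cells and -2.06 in RIPK3-titled cells.

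Anaphase begins when CDC20 activates the anaphase-promoting complex, which works with the ubiquitin-conjugating enzyme of Ube2c and frees separase, the product of Espl1. This group had no call with differentiation of control cells: Cdc20, Ube2c and Espl1 had log2 values of -0.0037, -0.07 and -0.11 (adjusted p 0.957, 0.386 and 0.245). All 3 rose in J0_RIPK3, fell from J0_RIPK3 to J7_RIPK3 and were lower in J7_RIPK3 than in J7_CTL. Cdc20 stood at 21.2, 20.6 and 20.4 CPM in J0_CTL, 46.3, 45.6 and 45.02 in J0_RIPK3, 22.7, 19.8 and 21.6 in J7_CTL and 9.09, 11.98 and 9.48 in J7_RIPK3. The control libraries of both stages overlapped, J0_RIPK3 lay 2.19-fold above J0_CTL (1.11 ± 0.05, adjusted p 2.04e-14) and J7_RIPK3 lay 2.12-fold below J7_CTL (-1.06 ± 0.09, adjusted p 3.07e-09). Per length (FPKM, fragments per kilobase of gene and per M reads), Cdc20 was the highest member in J0_CTL (11.1 ± 0.232 FPKM) and J0_RIPK3 (24.4 ± 0.353 FPKM).

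The chromosomal passenger complex corrects faulty attachments and then moves to the midzone. It consists of the kinase of Aurkb and the scaffold and targeting proteins of Incenp, Birc5 and Cdca8 (borealin). In control cells 3 of its 4 genes rose with differentiation (48.2% of all genes did), and the fourth, Birc5, was not called. Incenp rose 1.68-fold, from 26.4, 23.4 and 24.7 CPM to 42.4, 39.5 and 43.8 CPM (0.71 ± 0.06, adjusted p 3.68e-11), the highest value of any member in that comparison. Its libraries at J0 and J7 did not overlap, and it was also the member with the smallest fall in RIPK3-titled cells, from 47.9, 43.8 and 46.6 CPM to 33.4, 32.3 and 33.2 CPM (-0.51 ± 0.05, adjusted p 1.34e-08). Aurkb rose from 6.23 ± 0.579 to 9.55 ± 0.916 CPM in control cells (0.57 ± 0.11, adjusted p 4.49e-05) and fell from 15.6 ± 1.46 to 6.35 ± 0.3698 CPM in RIPK3-titled cells (-1.32 ± 0.10, adjusted p 6.08e-11). Cdca8 rose 1.43-fold in control cells (0.46 ± 0.09, adjusted p 7.63e-05) and fell 2.78-fold in RIPK3-titled cells (-1.51 ± 0.10, adjusted p 4.76e-12). Birc5 stood at 9.23, 9.12 and 9.93 CPM in J0_CTL, 24.7, 25.2 and 22.9 in J0_RIPK3, 10.8, 10.6 and 10.8 in J7_CTL and 6.67, 6.69 and 6.83 in J7_RIPK3. Its control groups did not overlap but differed little (0.15 ± 0.09, adjusted p 0.12; called with library totals alone at adjusted p 0.0458 and with the authors' size factors at 0.0311), and J7_RIPK3 lay below every other library (-0.66 ± 0.10, adjusted p 8.17e-06). All 4 rose in J0_RIPK3 and were lower in J7_RIPK3 than in J7_CTL. Per length, Incenp was the highest member in J7_CTL (13.02 ± 0.688 FPKM) and J7_RIPK3 (10.2 ± 0.179 FPKM).

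Centromere and kinetochore genes fell in control cells, where the passenger genes rose or were not called. Cenpa encodes the histone variant that marks centromeres, Cenpe a kinetochore motor, Cenpf a large kinetochore protein, and Ndc80 and Nuf2 are subunits of the complex that grips microtubules. All 5 fell with differentiation in control cells (47.6% of all genes did), by -0.69 (Nuf2) to -1.03 (Cenpe) on the log2 scale. All 5 also fell in RIPK3-titled cells (48.5% of all genes did), by -2.17 (Cenpa) to -3.34 (Cenpf). Cenpa stood at 13.02, 13.7 and 14.05 CPM in J0_CTL, 29.3, 35.6 and 30.6 in J0_RIPK3, 6.55, 7.35 and 7.42 in J7_CTL and 7.21, 7.78 and 6.76 in J7_RIPK3. Its J7 libraries overlapped between the lines (0.04 ± 0.11, adjusted p 0.803), while J0_RIPK3 lay 2.33-fold above J0_CTL (1.21 ± 0.08, adjusted p 4.06e-12). Ndc80 stood at 6.84, 7.31 and 6.902 CPM in J0_CTL, 16.9, 16.6 and 13.5 in J0_RIPK3, 4.56, 4.59 and 4.25 in J7_CTL and 2.08, 2.38 and 2.57 in J7_RIPK3. These 4 groups did not overlap (1.13 ± 0.10, adjusted p 1.64e-09 at J0 and -0.91 ± 0.16, adjusted p 6.44e-05 at J7 against control). Cenpf had the largest difference between the differentiation changes (-2.50 ± 0.16, adjusted p 3.82e-13): it went from 12.6 ± 0.508 to 7.36 ± 0.84004 CPM in control cells and from 31.7 ± 2.01 to 3.15 ± 0.573 CPM in RIPK3-titled cells. Cenpe was lower in J7_RIPK3 than in J7_CTL (-0.45 ± 0.14, adjusted p 0.00966), but not called without J7_CTL 3 (adjusted p 0.0661) or J7_RIPK3 2 (0.0675).

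Spindle motors and microtubule proteins take in Kif11, the motor that pushes spindle poles apart, the depolymerase Kif2c, the chromokinesin Kif4, the spindle assembly factor Tpx2, and Nusap1, Hmmr and Dlgap5, which bind or bundle spindle microtubules. All 6 with counts in both J0 groups rose in J0_RIPK3, and all 7 fell from J0_RIPK3 to J7_RIPK3. In control cells 5 of 6 fell (47.6% of all genes did), with Nusap1 not called (-0.12 ± 0.10, adjusted p 0.237). Kif11 had few reads, 416 over the 3 J0_RIPK3 libraries, 121 in J7_CTL and 34 in J7_RIPK3, which is 2.44, 6.14 and 5.77 CPM, 0.787, 2.23 and 1.75 CPM and 0.708, 0.149 and 0.529 CPM. It was the lowest member per length in these 3 groups, and its falls carry the widest errors of the set (-3.34 ± 0.37, adjusted p 2.25e-08 from J0 to J7 in RIPK3-titled cells and -1.71 ± 0.40, adjusted p 0.000963 against J7_CTL). Tpx2 stood at 28.8 ± 1.74 CPM in J0_CTL and 64.6 ± 3.78 in J0_RIPK3, and with differentiation it changed by -0.24 in control cells and -2.09 in RIPK3-titled cells on the log2 scale. At J7, 6 of 7 were lower in RIPK3-titled cells and Kif2c was not called (-0.36 ± 0.18, adjusted p 0.102, called without J7_CTL 2 at adjusted p 0.0440). Hmmr was called (-0.44 ± 0.16, adjusted p 0.0244), but not without J7_CTL 2, J7_CTL 3, J7_RIPK3 1 or J7_RIPK3 3 (adjusted p 0.0671 to 0.125).

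Cytokinesis follows from the spindle midzone, which the bundling protein of Prc1 and the motors of Kif20a and Kif23 build, and from the contractile ring, which Ect2, Racgap1 and the scaffold anillin (Anln) set up. All 6 rose in J0_RIPK3 and fell from J0_RIPK3 to J7_RIPK3. In control cells 5 of 6 fell (47.6% of all genes did) and Anln rose. Kif20a had the largest J0 difference of any member, from 18.7, 17.97 and 20.6 CPM in J0_CTL to 56.9, 59.7 and 50.7 CPM in J0_RIPK3 (1.52 ± 0.06, adjusted p 3.31e-15). At J7 its lines overlapped, at 11.1, 8.65 and 10.1 CPM in J7_CTL and 10.2, 10.7 and 9.97 CPM in J7_RIPK3 (0.06 ± 0.10, adjusted p 0.624). Kif23 fell most in both lines, from 10.98, 10.5 and 12.6 to 3.44, 2.88 and 3.28 CPM in control cells (3.51-fold, -1.86 ± 0.12, adjusted p 4.4e-13) and from 28.1, 30.8 and 28.1 to 2.08, 1.44 and 1.25 CPM in RIPK3-titled cells (18.2-fold, -4.21 ± 0.12, adjusted p 1.82e-18). Counted within a library, there were 0.416 to 0.507 Kif23 reads per Incenp read in J0_CTL and 0.0730 to 0.0810 in J7_CTL, and 0.586 to 0.703 in J0_RIPK3 and 0.0376 to 0.0624 in J7_RIPK3 (again a pair chosen after the values were seen). The ratio was lower at J7 than at J0 in every library of both lines.

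Anln stood at 29.4, 28.7 and 29.02 CPM in J0_CTL, 75.2, 78.9 and 71.1 in J0_RIPK3, 35.8, 33.2 and 34.8 in J7_CTL and 34.8, 35.01 and 31.6 in J7_RIPK3. It rose slightly in control cells (0.21 ± 0.05, adjusted p 0.000925), fell 2.21-fold in RIPK3-titled cells (-1.18 ± 0.05, adjusted p 2.09e-15) and overlapped between the lines at J7 (-0.02 ± 0.06, adjusted p 0.753). Racgap1 had the smallest J0 difference, from 45.4 ± 0.805 to 76.4 ± 0.562 CPM (0.73 ± 0.04, adjusted p 2.25e-13), and then fell in both lines (-0.55 and -2.01). Prc1 fell in control cells (-0.22 ± 0.09, adjusted p 0.03), a call lost with library totals alone, the authors' size factors or DESeq2's Wald test, and without J0_CTL 2, J0_CTL 3, J7_CTL 1 or J7_CTL 2 (adjusted p 0.0636 to 0.171).

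Top2a, the topoisomerase that untangles sister chromatids, and Mki67, the coat of mitotic chromosomes best known as the Ki-67 proliferation marker, both rose in J0_RIPK3. Top2a stood at 40.8, 39.3 and 40.9 CPM in J0_CTL, 101, 97.9 and 96.5 in J0_RIPK3, 47.7, 50.8 and 47.995 in J7_CTL and 26.9, 29.3 and 26.01 in J7_RIPK3. Mki67 stood at 31.7, 36.7 and 32.7 CPM in J0_CTL, 89.6, 88.1 and 84.2 in J0_RIPK3, 24.99, 26.4 and 25.5 in J7_CTL and 13.04, 14.8 and 15.03 in J7_RIPK3. The 4 groups did not overlap for either gene, and the pair parted in control cells, where Top2a rose 1.21-fold (0.23 ± 0.05, adjusted p 7.67e-05) and Mki67 fell 1.31-fold (-0.44 ± 0.06, adjusted p 5.81e-07). In RIPK3-titled cells both fell, Top2a 3.603-fold (-1.88 ± 0.05, adjusted p 1.54e-19) and Mki67 6.08-fold (-2.64 ± 0.06, adjusted p 1.27e-20), and both were lower in J7_RIPK3 than in J7_CTL (1.79-fold each).

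**Figure D4:**
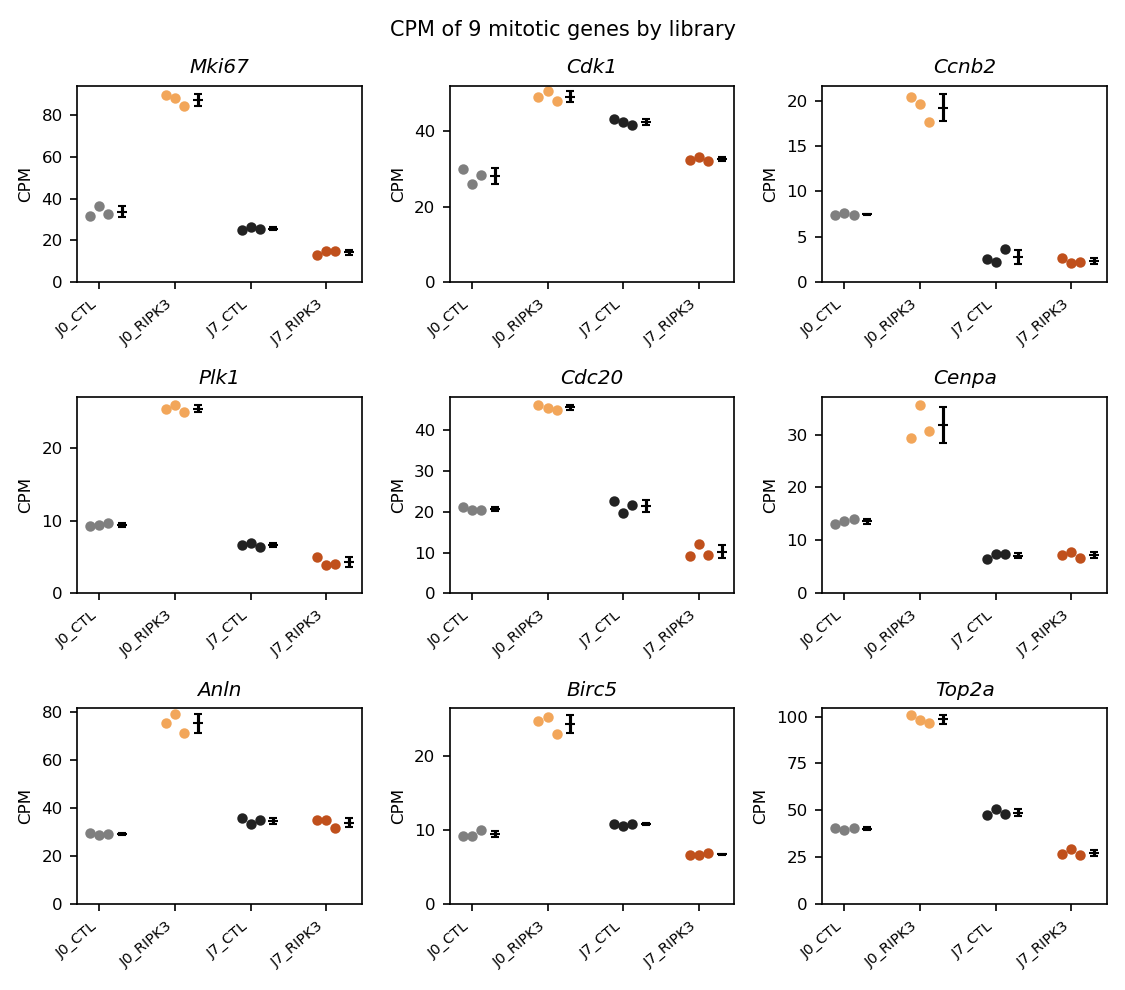
CPM (y axes, each from 0) of 9 members in the 12 CTL and RIPK3 libraries (x axis, by group), 1 point per library, with the mean and SD over 3 libraries beside them. In all 9 panels J0_RIPK3 lies above the other groups. Cdk1, Top2a, Anln and, by little, Birc5 lie higher in J7_CTL than in J0_CTL. Ccnb2, Plk1, Cenpa and Mki67 lie lower there, and Cdc20 overlaps.

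The order of the members was alike in the 2 differentiation changes, which share no library. Across the 37 genes with both values, Pearson's r was 0.896 and Spearman's rho 0.871, given as a description because genes of 1 library are not independent. Of the 7 members that rose in control cells, 6 (Incenp, Cdk1, Mad2l1, Anln, Aurkb and Cdca8) had the smallest falls in RIPK3-titled cells, and the exception was Top2a. Kif23 was lowest in both changes. Every one of the 37 was lower in the change of RIPK3-titled cells than in that of control cells, which follows in part from the listing. By promoter, the 24 tested members with a CHR match ranged from 0.73 to 1.44 in J0_RIPK3 against J0_CTL (median 1.28) and the 7 without one from 0.86 to 1.45 (median 1.19), so the ranges of the 2 sets overlapped.

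**Figure D5:**
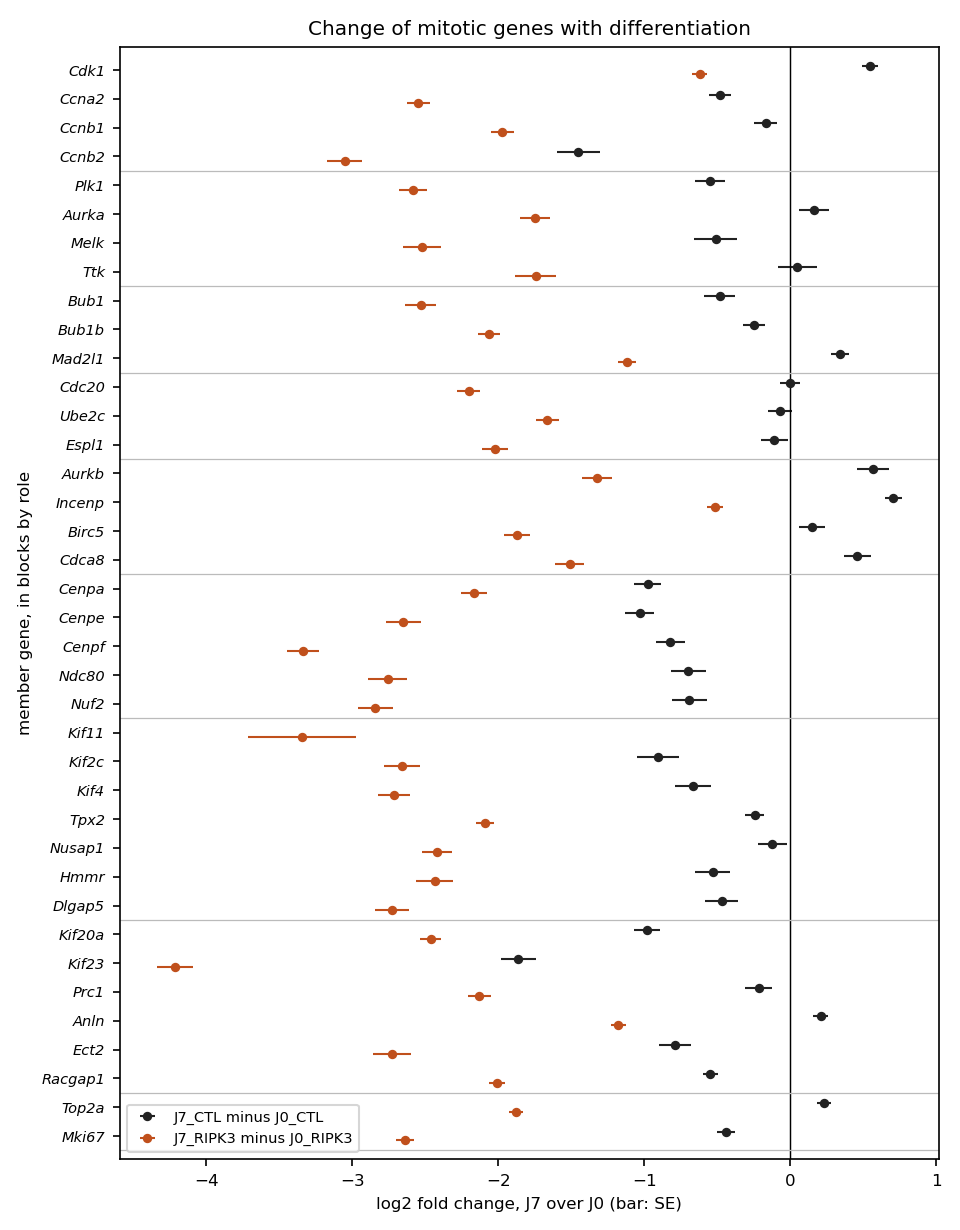
Log2 fold change of J7 over J0 (x axis, bars are SE) for each member (y axis, in blocks by role) in control cells (black) and RIPK3-titled cells (orange). Values for control cells run from -1.86 (Kif23) to 0.71 (Incenp) and every value for RIPK3-titled cells lies below 0, with no control value for Kif11.

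Other genes of the cycle, from lists drawn up with earlier results of these data known, moved with the members at J0. Of 90 further mitotic genes, 83 were tested in J0_RIPK3 against J0_CTL, and 74 rose (28.3% of all genes did) and 1 (Numa1, -0.16) fell, with a median log2 fold change of 0.87 and the highest value in Ska1 (2.50). In J7_RIPK3 against J0_RIPK3, 78 of 86 fell (48.5% of all genes did) and 7 rose (median -1.46), from -3.99 for Depdc1b to 2.30 for Pkmyt1, which encodes an inhibitory kinase of CDK1. In control cells 40 of 79 fell and 27 rose (median -0.18), with Psrc1 lowest (-3.80) and Pkmyt1 highest (2.98), and the share that fell was near the 47.6% of all genes called lower there. In J7_RIPK3 against J7_CTL, 58 of 82 fell (29.5% of all genes did) and 2 rose. DNA replication genes, the MCM helicase, polymerase and clamp loader genes among them, also rose in J0_RIPK3: all 37 tested did (median 0.71), from 0.21 for Gins4 to 1.38 for Cdc6. With differentiation of control cells 22 of 36 rose (48.2% of all genes did) and 11 fell (median 0.34), with Cdc45 highest (1.98) and Pola1 lowest (-0.84). In RIPK3-titled cells 32 of 36 fell (48.5% of all genes did), with a median of -0.94. All 34 with an interaction test were called lower (20.6% of all genes were), with a median of -1.20.

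Among the regulators of these promoters, Foxm1 stood at 19.98, 21.1 and 22.6 CPM in J0_CTL, 36.6, 37.2 and 37.4 in J0_RIPK3, 13.1, 14.98 and 15.1 in J7_CTL and 8.21, 9.66 and 8.34 in J7_RIPK3. Its 4 groups did not overlap and followed the order of most members (0.79 ± 0.06, adjusted p 7.14e-11 at J0 and -0.71 ± 0.10, adjusted p 1.84e-06 at J7 against control). Mybl2, which encodes B-MYB, rose in J0_RIPK3 (1.17 ± 0.10, adjusted p 1.52e-09) and fell in RIPK3-titled cells (-1.58), but was not called in control cells (-0.22 ± 0.13, adjusted p 0.101) or between the lines at J7 (-0.16 ± 0.15, adjusted p 0.368). Of 17 tested DREAM and MuvB regulators 12 rose (28.3% of all genes did) and 1 (Tfdp2, -0.27) fell in J0_RIPK3, with the repressor E2f8 highest (1.43). In control cells 11 of 19 rose with differentiation (48.2% of all genes did) and 5 fell, and E2f2 went from 0.2299, 0.446 and 0.202 CPM to 6.42, 6.82 and 6.64 CPM (4.43 ± 0.23, adjusted p 4.09e-15). In RIPK3-titled cells E2f2 reached 2.42, 1.78 and 1.85 CPM, below every J7_CTL library (-1.70 ± 0.16, adjusted p 5.66e-09).

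The inhibitors of cyclin-dependent kinases did not move as 1 group. Cdkn2c, for p18, was higher in J0_RIPK3 (0.92 ± 0.05, adjusted p 2.95e-13) and rose with differentiation in both lines (1.94 in control and 1.67 in RIPK3-titled cells), to 119, 107 and 116 CPM in J7_CTL and 179, 187 and 169 CPM in J7_RIPK3. Cdkn1a, for p21, was slightly lower in J0_RIPK3 (-0.10 ± 0.03, adjusted p 0.00818) and higher in J7_RIPK3 (0.24 ± 0.04, adjusted p 2.97e-05), and it fell with differentiation in both lines (-0.60 and -0.28). Cdkn1b, for p27, was not called at J0 (0.06 ± 0.03, adjusted p 0.0938) and fell in both lines (-0.92 and -1.15). Cdkn2b fell in both lines too (-2.03 and -1.87), as did Cdkn2a (-1.66 and -1.70). Cdkn2d was higher in J0_RIPK3 (0.39) and in J7_CTL against J0_CTL (0.36), and Cdkn1c has counts only in J7_CTL and J7_MLKL. Of the 9 cyclins and kinases of G1, 7 rose in J0_RIPK3 (28.3% of all genes did), with Ccne2 highest (1.23). Among these 9, Ccnd1, for cyclin D1, fell most with differentiation in both lines (-3.19 ± 0.04, adjusted p 2.26e-28 in control and -4.60 ± 0.05, adjusted p 1.46e-25 in RIPK3-titled cells).

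For MLKL-titled cells only part of the set can be described. Members have MLKL counts only where the authors called them changed in an MLKL comparison, 6 in J0_MLKL and 11 in J7_MLKL, so the numbers of changed genes here follow from that choice and say nothing about the other members. Against J0_CTL, the 6 had 5 lower values that were called, with Aurkb not called (-0.12 ± 0.13, adjusted p 0.43), and 83.6% of the 3824 genes tested were called, 40.4% higher and 43.2% lower. Melk fell most, from 5.404, 6.38 and 5.41 CPM in J0_CTL to 3.54, 3.88 and 2.704 CPM in J0_MLKL (-0.73 ± 0.16, adjusted p 0.00397), and its libraries did not overlap. Kif20a stood at 14.96, 12.2 and 13.9 CPM (-0.45 ± 0.11, adjusted p 0.00545), Mad2l1 at 16.3, 19.2 and 16.6 (-0.32 ± 0.09, adjusted p 0.0116), Tpx2 at 24.3, 23.8 and 21.4 (-0.29 ± 0.09, adjusted p 0.0162) and Bub1 at 5.99, 3.49 and 6.297 CPM (-0.63 ± 0.21, adjusted p 0.0221). These 4 also lay lower than in J0_CTL, but Bub1 was not called without J0_CTL 1 (adjusted p 0.0637) or J0_CTL 3 (0.0551), nor Tpx2 without J0_CTL 2 (0.0715) or J0_MLKL 3 (0.0558). Bub1 was lowest in J0_MLKL 2, the library that stood apart, and all 5 were called without it. The same 5 genes were higher, not lower, in J0_RIPK3 than in J0_CTL, and both comparisons use the same J0_CTL libraries.

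At J7, 7 of the 11 listed members were higher in J7_MLKL than in J7_CTL, 3 were lower and 1 was not called, where 94.9% of 7263 genes tested were called, 48.5% higher and 46.4% lower. Cenpa was highest, at 14.02, 12.3 and 18.3 CPM in J7_MLKL against 6.55, 7.35 and 7.42 in J7_CTL (1.17 ± 0.18, adjusted p 0.00105). Kif23 (1.13), Kif2c (1.09), Melk (1.07), Kif4 (1.02), Plk1 (0.93) and Nuf2 (0.76) were also higher, on the log2 scale. Plk1 stood at 10.3, 7.65 and 17.2 CPM, highest in J7_MLKL 3, and its call was lost without any 1 of the J7_CTL libraries (adjusted p 0.0600 to 0.0710). Anln was lower, at 18.3, 17.3 and 9.12 CPM against 35.8, 33.2 and 34.8 CPM (-1.12 ± 0.26, adjusted p 0.00545), as were Mad2l1 (-0.55) and Incenp (-0.38), while Aurkb was not called (0.12 ± 0.18, adjusted p 0.538). Without J7_MLKL 3, which stood apart, 7 were again called higher and 3 lower. The median log2 fold change of all genes was 0.17 with TMM factors and 0.07 with library totals alone, a shift that leaves the signs of the 10 called values as they are. The adipocyte markers summed to 2071 CPM in J7_MLKL against 13710 CPM in J7_CTL and the fibroblast list, of which 5 of 6 genes have J7_MLKL counts, to 9115 against 2859 CPM. Cd14, from the macrophage list, stood at 41.8 ± 13.3 CPM in J7_MLKL and 10.7 ± 1.51 CPM in J7_CTL. The part of these differences in the mitotic values was not tested.

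From J0_MLKL to J7_MLKL only Melk, Aurkb and Mad2l1 have counts in both groups, and 66.7% of the 3075 genes tested were called, 35.8% higher and 30.9% lower. Melk rose from 3.54, 3.88 and 2.704 to 6.76, 6.63 and 10.7 CPM (1.23 ± 0.26, adjusted p 0.00621) and Aurkb from 5.43, 6.38 and 5.06 to 8.96, 8.199 and 11.8 CPM (0.75 ± 0.19, adjusted p 0.013), and Mad2l1 was at 0.06 ± 0.14, adjusted p 0.752. The libraries did not overlap for Melk and Aurkb, but Aurkb was not called without J0_MLKL 1 (adjusted p 0.0526) or J0_MLKL 3 (0.0539) or with the replicate block (0.0530). Set against the change in control cells, Melk was called higher (1.69 ± 0.33, adjusted p 0.000795), among 65.3% of 3033 genes called and a median of 0.30 over all genes with TMM factors and -0.01 with DESeq2 size factors. Aurkb (0.13 ± 0.22, adjusted p 0.627) and Mad2l1 (-0.33 ± 0.15, adjusted p 0.0724) were not called in that contrast, and the sign of Aurkb and the call of Mad2l1 depended on the scaling.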

How the data were processed

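RNA-seq of 18 libraries, 6 groups of 3, was used. Per the submitters' processing notes, the tools were FastQC 0.11.9, HISAT2, featureCounts 1.5.0-p3 and DESeq2, and the build was mm10; strandedness and the annotation release are not given in the sources used here. The 7 deposited comparison tables give raw counts per gene, FPKM values that the authors scaled by gene length and library total, and a normalised signal, which is the authors' count divided by a size factor. They also give the authors' log2 fold changes and p-values, and list only genes with an authors' adjusted p below 0.05.

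Counts were joined by gene ID into 15194 genes, and 88950 counts that stand in more than 1 table were equal in each. Library totals (20.2 to 36.9 M reads) were recovered from counts, FPKM and length. Groups were compared with edgeR 4.0.16 (R 4.3.3): quasi-likelihood F test, filterByExpr, TMM factors on those totals, no block, Benjamini-Hochberg adjustment over all genes tested, and SE taken as the log2 fold change over the root of F. Each pairwise comparison used its 2 groups and each difference of differentiation changes its 4 groups. A gene enters a fit only if it has counts in every group of it. The fits were tested on simulated data. Alternatives were library totals alone, DESeq2 1.42.0 size factors, the authors' size factors, DESeq2's Wald test, no filter, a mean of at least 50 counts, the replicate number as a block, each library left out, and J0_MLKL 2 and J7_MLKL 3 left out together.

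The members and gene lists were chosen with earlier results of these data known. Every member may be named; the anchor genes of each role, the highest and lowest member of a comparison and members called against the majority have full values, and other lists have counts, extremes and the CDK inhibitors by name. Genes outside these are named where a sentence singles them out, after their values were seen (Foxm1, Mybl2). Promoters are RefSeq's for GRCm38.p6. Enrichment tables were not used here.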

Additional observations from a re-analysis of the deposited data

Results flagged for a closer look

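The change with differentiation differed between RIPK3-titled and control cells for all 37 members tested, by edgeR's test of the difference itself. Of all 11027 genes tested, 39.0% were called there. Aurka, Birc5, Bub1b, Ccnb1, Cdc20, Espl1, Nusap1, Prc1, Ttk and Ube2c have control counts only through the authors' own calls against RIPK3-titled cells. Those calls were higher at J0 and lower at J7, so for these members the direction of the difference follows from the listing. On the log2 scale, RIPK3-titled less control, the cyclin and CDK1 genes were at -1.14 (Cdk1), -1.58 (Ccnb2), -1.79 (Ccnb1) and -2.05 (Ccna2). The kinase and checkpoint genes were at -1.89 (Aurka), -1.99 (Melk), -2.01 (Plk1) and -2.03 (Bub1). Kinetochore genes ran from -1.17 (Cenpa) through -2.04 (Ndc80) to -2.50 (Cenpf). The others were Anln at -1.37, Birc5 at -1.999, Top2a at -2.09, Cdc20 at -2.18 and Mki67 at -2.18.

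Between MLKL-titled and control cells the change differed for 1 of the 3 members tested, Melk, at 1.69, where 65.3% of the 3033 genes tested were called. Melk has MLKL counts because the authors listed it as changed.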

How the results depend on the processing

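Of 2935 values of members under the alternatives, 2874 kept their direction and their side of the threshold, 33 lost the call, 10 gained one and 18 changed sign. In J0_RIPK3 against J0_CTL, J7_RIPK3 against J0_RIPK3 and the RIPK3 difference of changes, all 481, 494 and 666 values kept both. For J7_MLKL against J0_MLKL, 1 member was called higher with the replicate block, and 1 to 2 with a library left out. For the MLKL difference of changes, 1 member (Mad2l1) was called lower with DESeq2 size factors, DESeq2's Wald test, a mean of at least 50 counts, or without J0_MLKL 2 and J7_MLKL 3, and 0 to 1 with a library left out. The cause of these changes was not tested.

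The values that changed sign were not called in the main analysis. For J7_CTL against J0_CTL, Cdc20 was at 0.0416 (totals alone), 0.0013 (DESeq2 size factors), 0.0583 (authors' size factors) and 0.0017 (Wald test), and from -0.0401 to 0.0517 with a library left out; Ttk was at -0.0044 to 0.0974. With a library left out, Mad2l1 was at -0.0597 to 0.12 in J7_MLKL against J0_MLKL, Aurkb at -0.0823 to 0.22 in J7_MLKL against J7_CTL, and in J7_RIPK3 against J7_CTL Cenpa was at -0.0206 to 0.0748, Kif20a at -0.0254 to 0.14 and Anln at -0.0506 to 0.0146. In the MLKL difference of changes Aurkb was at -0.18 with DESeq2 size factors, -0.18 with the Wald test, -0.0104 with a mean of at least 50 counts and -0.0421 to 0.23 with a library left out.

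Replicate numbers did not pair the libraries: same-numbered libraries correlated at -0.07 to 0.03 in comparisons without MLKL-titled cells and at -0.69 to 0.46 over all. With the replicate block 22 members were called lower in J7_CTL against J0_CTL, against 23 without it. Members absent from MLKL groups, and Kif11 in J0_CTL, were not analysed here, and the few reads of Kif11 limit its precision.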
